A study of Sus scrofa with 6 samples.

Results

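The mitochondrial ribosomal protein genes encode the protein parts of the ribosome inside mitochondria. They were taken as all probes with a single gene symbol starting MRPL or MRPS, which gave 37 genes of 10663 named genes, each with 1 probe. They comprised 24 genes of the large subunit and 13 genes of the small subunit. Total RNA from pools of 50 porcine oocytes was hybridised to Affymetrix arrays, with 3 pools after maturation in culture and 3 pools before it. The oocytes came from ovaries of pubertal crossbred Landrace gilts collected at slaughter. The matured pools had been cultured for 44 h as cumulus-oocyte complexes, oocytes still enclosed by somatic cumulus cells, in medium with porcine follicular fluid, hCG and eCG. The pools before maturation are described as taken ahead of that culture, and their titles call them in vivo oocytes, although the labels attach the culture text to all 6 samples. No pool carries a transgene or a drug treatment in the labels, and a dye test named in the design text is not assigned to single pools. Maturation and the culture with its hormones cannot be told apart, because the design has no cultured but unmatured pool. The labels call the pools biological replicates without saying which animals gave them, so p-values measure only the spread between these pools.

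The mitochondrial ribosome translates only the few messages of the mitochondrial genome, all of which encode subunits of the respiratory chain or of ATP synthase. Its own proteins are encoded in the nucleus, made in the cytosol and imported, and many of them have no bacterial counterpart. Oocytes carry a large store of mitochondria into the embryo, and in humans mutations of MRPS22 and MRPL50 have been linked to ovarian insufficiency.

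The arrays hold log2 levels made by the RMA method, and every level below is on that scale. Array medians lay between 5.62 and 5.70, and the upper quartiles between 7.80 and 7.92. Among the 11 measured oocyte markers, GDF9 and BMP15, secreted growth factors of the oocyte, averaged 11.06 ± 0.04 and 12.19 ± 0.01 after maturation, and 11.01 ± 0.03 and 12.07 ± 0.04 before it (SD, n = 3). Of these 11 markers 3 fell (KIT, ZP3 and ZP4), 0 rose and 8 were not called (27.3% called, against 11.3% of all probes). Of 16 measured markers of cumulus and granulosa cells 8 fell and 3 rose (68.8% called, against 11.3% of all probes). SERPINE2, GJA1 and HSD17B1 were among those that fell, and HSD3B1 among those that rose. The summed signal of the 16 markers, after undoing the logarithm, lay between 1951 and 2217 per array after maturation. It lay between 6051 and 8237 before maturation. No marker is listed at 0 on this scale, whose lowest value was 2.69. Of 7 theca and stromal markers POSTN and COL3A1 rose and ACTA2 fell (42.9% called, against 11.3% of all probes). Of 5 leukocyte markers CD3E rose (20% called) and TYROBP was not called. Of 5 endothelial markers, SOX17 and KDR among them, 0 were called. All 5 leukocyte and all 5 endothelial markers had positive differences, with medians of 0.39 and 0.23. With the replicate number as a block, SOX17 (limma adjusted p = 0.0369), the stromal DCN (0.0440) and the leukocyte CD14 (0.0470) were called higher as well. The part of such cells in the results below was not tested. In pooled RNA, fewer cells of a type and less RNA per cell cannot be told apart.

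Most mitochondrial ribosomal protein genes did not pass the test between pools after and before maturation, and the differences that passed it were 4 decreases. Of the 37 genes 0 rose, 4 fell (MRPS6, MRPL2, MRPL50 and MRPL52) and 33 were not called. A gene was called when its p-value from limma, two-sided and adjusted by the Benjamini-Hochberg method over all 12258 probes, was under 0.05. Over all probes 3.21% were called higher and 8.07% lower, so a count of 4 lower genes among 37 is near that background and is not a result about this family. The balance over the array moved with the scaling: there were 394 of all probes called higher and 989 of all probes called lower on the deposited scale, 915 higher and 891 lower with arrays at a common median, and 596 higher and 866 lower after a second quantile normalization. A pair of further scalings used the cytosolic ribosomal protein genes as the standard. The level scaling shifted each array to give their probes the same median level, which left 10712 of all probes called higher and 306 lower. The deviation scaling, chosen after seeing the data, gave their probes the same median deviation from each probe's own mean, which left 9593 higher and 523 lower. At an unadjusted p under 0.05 limma gave 7 of the 37 genes, against 3580 of all 12258 probes. The median log2 difference of the family, after minus before, was 0.01, against 0.08 for all named genes. Of the 37 differences 19 were above 0 and 18 below it, while of all 12258 probes 8016 were above 0 and 4242 below it.

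The 33 genes that were not called had log2 differences between -0.26 for MRPL10 and 0.39 for MRPL15. For all 33 the 95% interval of the difference lay within a 2-fold change in either direction. Leaving out the called genes removes large differences, so this share was partly fixed by the selection. For the whole family it held for 35 of 37 genes (94.6%), near the 92.6% of all probes. A missed threshold does not show equal levels, and these intervals give the sizes that remained possible on the deposited scale. The direction depends on scaling. The level scaling added 0.76 to every difference, which gave a median of 0.84 for all probes and 0.77 for the family, with 33 of the 37 genes called higher and 1 lower. It also moved the 40 cytosolic ribosomal protein genes past 0, to a median difference of 0.20 with 12 called higher and 1 lower. The deviation scaling added 0.47, which gave a median of 0.55 for all probes and 0.49 for the family, with 27 of the 37 genes called higher and 2 lower. Under it the cytosolic genes had a median of -0.08, with 8 called higher and 7 lower. Under both scalings most of all probes were called higher too. The 33 and 27 genes called higher are therefore not a result about this family.

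**Figure D1:**
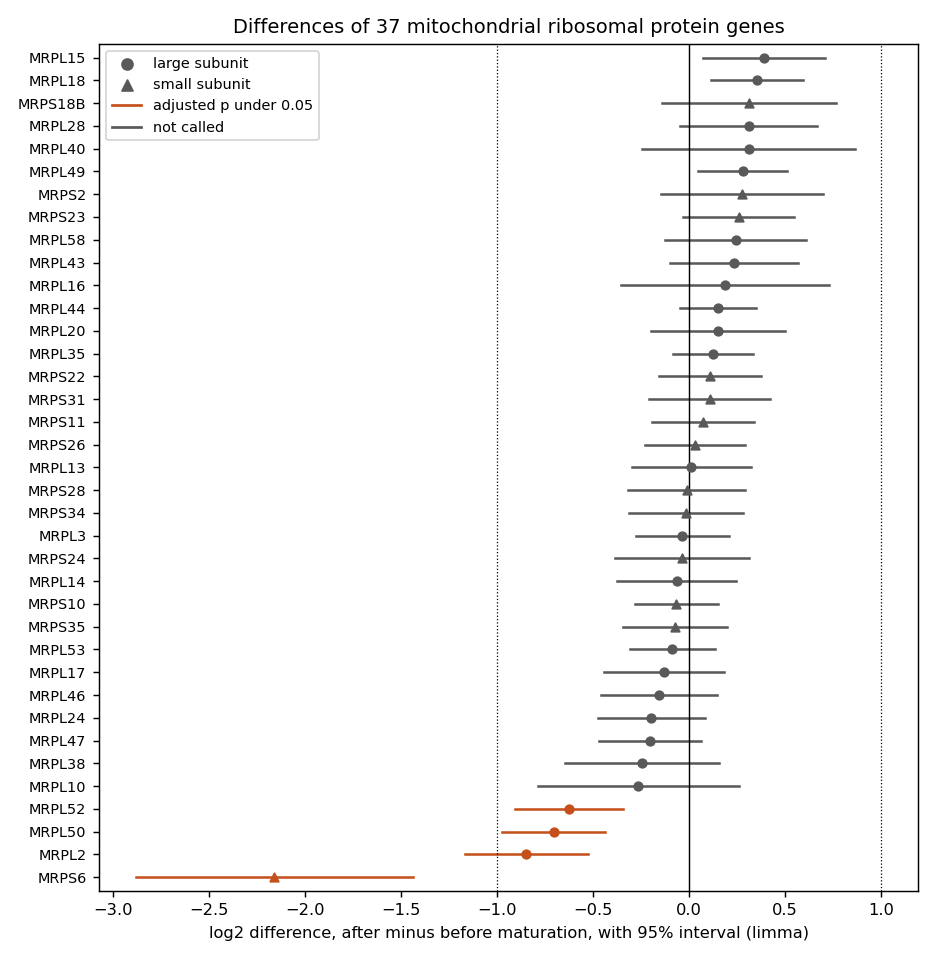
Log2 difference of each of the 37 genes, after minus before maturation, with its 95% limma interval; circles are large subunit genes, triangles small subunit genes, and dotted lines mark a 2-fold change. MRPS6, MRPL2, MRPL50 and MRPL52 (orange) passed the test as lower, although under the level scaling MRPL50 and MRPL52 turn to 0.051 and 0.13, and under the deviation scaling they are at -0.23 and -0.15; the other 33 intervals lie between the dotted lines.

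MRPS6 encodes the counterpart of a bacterial protein of the small subunit's platform, and its level fell the most of the 37. Its log2 level was 5.78, 6.06 and 5.97 in replicates 1, 2 and 3 after maturation, against 7.32, 8.16 and 8.80 before it. All matured pools lay below all others, and the pools before maturation differed among themselves by more than the matured ones did (SD 0.74 against 0.14 after maturation). The difference was -2.16 with a standard error of 0.31, a 4.47-fold lower level after maturation (limma adjusted p = 0.00366). Without replicate 3 before maturation, the highest array, the difference was -1.81 (adjusted p = 0.00255). With the replicate number as a block it was -2.16 (adjusted p = 0.000723), and it was also called under the level scaling (-1.40) and the deviation scaling (-1.69). The call was lost without moderation of the spread across probes. The summed signal of the 16 cumulus and granulosa markers was 6051, 6693 and 8237 in replicates 1, 2 and 3 before maturation. It rose there in the same order as MRPS6. After maturation it was 2217, 1951 and 1981, an order unlike that of MRPS6. The part of cumulus cells in the fall of MRPS6 was not tested.

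In the RefSeq annotation of assembly Sscrofa11.1 the span of MRPS6 overlaps that of SLC5A3, which encodes a sodium-coupled transporter of myo-inositol. Where on this stretch the probe lies was not analysed here, and whether transcripts of SLC5A3 add to its value was not tested. MRPS6 was also the only gene of the 37 with a measured difference of at least 2-fold.

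MRPL2 encodes a core protein of the large subunit that in bacteria lies near the peptidyl transferase centre. It had log2 levels of 6.04, 5.67 and 5.95 after maturation, against 6.81, 6.89 and 6.50 before it, with no overlap between the groups. The difference was -0.85 with a standard error of 0.14, a 1.80-fold lower level (limma adjusted p = 0.00662). It was -0.09 and not called under the level scaling, and -0.37 and called under the deviation scaling (adjusted p = 0.0394). Without moderation of the spread MRPL2 was not called. Its span overlaps that of KLC4, which encodes a kinesin light chain, and CUL7, a cullin gene, lies within 1000 bases of it.

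KLC4 had log2 levels of 5.52, 5.52 and 5.71 after maturation, against 6.11, 6.25 and 6.24 before it (difference -0.61, limma adjusted p = 0.00563). CUL7 had levels of 5.83, 5.66 and 5.81 after maturation, against 6.68, 6.22 and 6.45 before it (difference -0.68, limma adjusted p = 0.0125). These 3 neighbouring genes were thus all called lower on the deposited scale, while KLC4 and CUL7 had values of 0.14 and 0.072 under the level scaling. KLC4 and CUL7 were picked out after their values were seen.

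MRPL50, a large subunit protein specific to mitochondria, had log2 levels of 8.22, 8.51 and 8.36 after maturation, against 9.04, 9.23 and 8.93 before it. The difference was -0.70 with a standard error of 0.12, a 1.63-fold lower level (limma adjusted p = 0.00694). MRPL52, also specific to mitochondria and part of the central protuberance of the large subunit, had levels of 8.97, 9.17 and 9.11 after maturation, against 9.63, 9.94 and 9.56 before it. Its difference was -0.63 with a standard error of 0.12, a 1.54-fold lower level (limma adjusted p = 0.0150). Neither gene's groups overlapped, and without moderation of the spread neither gene was called. MRPL52 was not called without replicate 1 after maturation (-0.57, adjusted p = 0.0726), and neither gene was called under the level scaling (0.051 for MRPL50 and 0.13 for MRPL52) or the deviation scaling (-0.23 for MRPL50 and -0.15 for MRPL52).

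**Figure D2:**
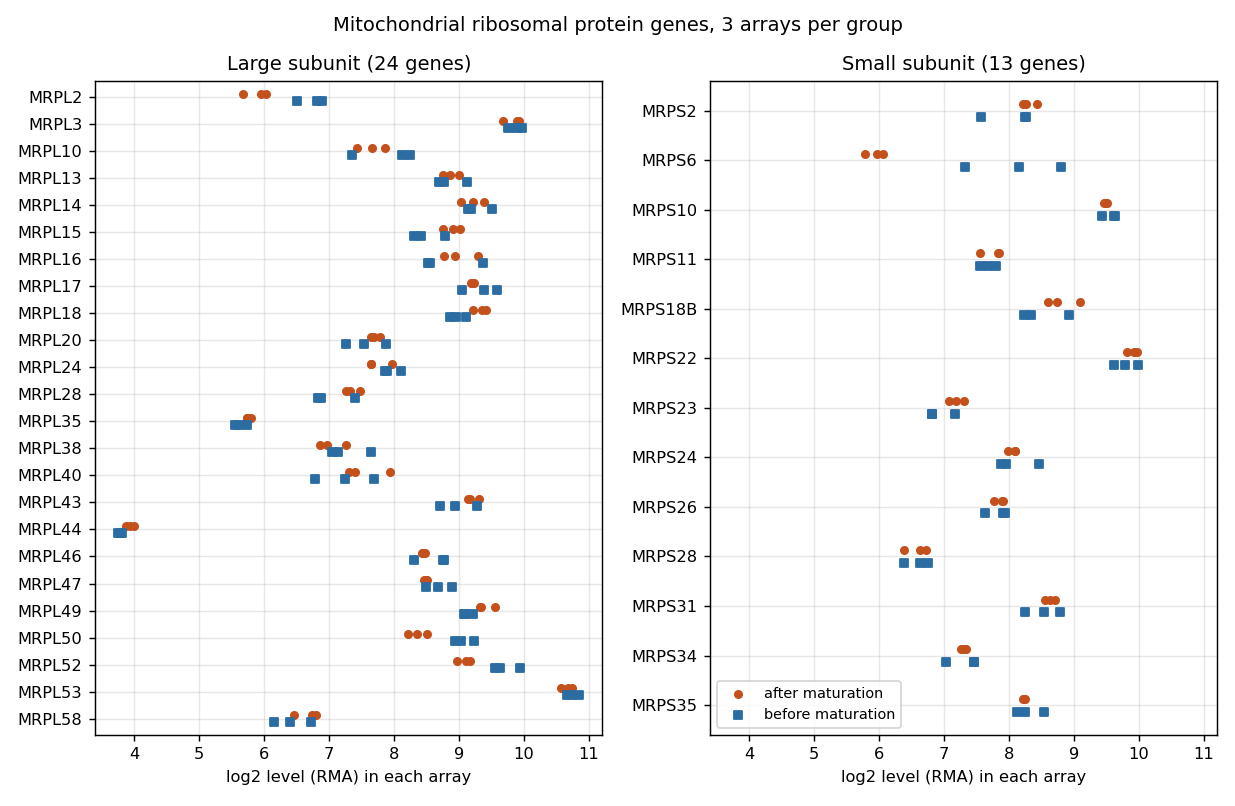
Log2 level of each gene in each of the 6 arrays, with circles for pools after maturation and squares for pools before it. The matured pools lie wholly to the left for MRPS6, MRPL2, MRPL50 and MRPL52 on the deposited scale and wholly to the right for MRPL18, MRPL44 and MRPL49; positions of different genes do not rank their transcripts, because probes differ in brightness.

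The 2 largest positive differences belonged to large subunit genes, and neither passed the test on the deposited scale. MRPL15 and MRPL18 encode counterparts of bacterial large subunit proteins. MRPL15 had log2 levels of 8.76, 9.01 and 8.91 after maturation, against 8.41, 8.79 and 8.31 before it, and replicate 2 before maturation reached into the range of the matured pools. Its difference was 0.39 (95% interval 0.07 to 0.71, limma adjusted p = 0.110). For MRPL18 the levels were 9.42, 9.22 and 9.35 after maturation, against 8.86, 9.11 and 8.95 before it, without overlap. Its difference was 0.35 (95% interval 0.12 to 0.59, limma adjusted p = 0.0653), and with each array at a common median it was called higher (0.41, adjusted p = 0.0385).

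MRPS18B, a small subunit protein and one of several mitochondrial relatives of a bacterial platform protein, differed by 0.31 with overlapping groups (limma adjusted p = 0.322). Groups without overlap were counted for 3 genes on the higher side, MRPL18, MRPL44 and MRPL49, and for the 4 called genes on the lower side. Over all probes 21.7% had groups without overlap on the higher side and 14.4% on the lower side.

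At the negative end, MRPL10, a protein of the ribosomal stalk that binds translation factors, differed by -0.26 (limma adjusted p = 0.465). Its levels were 7.66, 7.43 and 7.86 after maturation, against 8.13, 8.25 and 7.36 before it, so replicate 3 before maturation was the lowest of all 6. MRPL38, of the central protuberance, differed by -0.25 (adjusted p = 0.375). MRPL47, the mitochondrial relative of a bacterial protein beside the exit of the peptide tunnel, differed by -0.20 (adjusted p = 0.279).

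Several genes with known roles in human disease or at the core of the ribosome were not called. MRPL3, a core large subunit protein, had log2 levels of 9.68, 9.93 and 9.89 after maturation, against 9.76, 9.88 and 9.97 before it. Its difference was -0.03 (95% interval -0.28 to 0.21). MRPS22, a small subunit protein specific to mitochondria, had levels of 9.81, 9.93 and 9.97 after maturation, against 9.61, 9.99 and 9.78 before it, a difference of 0.11 (95% interval -0.16 to 0.37). For both genes the groups overlapped.

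MRPL53, a large subunit protein specific to mitochondria, averaged 10.66 ± 0.09 after maturation and 10.75 ± 0.10 before it (SD, n = 3). MRPL35, a large subunit protein with a bacterial counterpart, averaged 5.76 ± 0.03 after maturation and 5.63 ± 0.10 before it. MRPL44, a large subunit protein with a ribonuclease-like fold, averaged 3.94 ± 0.07 after maturation and 3.78 ± 0.03 before it. MRPL44 was the only gene of the 37 under the lower quartile of every array, and whether it lies above background was not tested.

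The median log2 difference was -0.01 for the 24 large subunit genes, of which 3 fell, and 0.03 for the 13 small subunit genes, of which 1 fell. It was 0.11 for the 17 genes specific to mitochondria, of which 2 fell, and -0.02 for the 20 with a bacterial counterpart, of which 2 fell. After subtracting the genome-wide median difference of named genes, these medians were -0.09 for the large subunit, -0.05 for the small subunit, 0.03 for the genes specific to mitochondria and -0.10 for those with a bacterial counterpart. MRPS18B (0.31) was counted as specific to mitochondria although it is a relative of a bacterial platform protein. The medians by origin depend in part on that label. The shares that fell were 12.5% for the large subunit and 7.69% for the small subunit. They were 11.8% for the genes specific to mitochondria and 10.0% for those with a bacterial counterpart. Over all probes 8.07% were called lower, so these counts are near that background. The differences between these groups of genes were not tested.

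The spread between pools of this family was wider before maturation. The median SD over the 37 genes was 0.11 after maturation and 0.21 before it, while over all probes it was 0.12 after maturation and 0.13 before it, a difference in spread that was not tested. It was also wider before maturation for respiratory chain and ATP synthase genes (0.13 after, 0.19 before). The same held for mitochondrial ribosome assembly and rRNA modification factors (0.13 after, 0.20 before). It was narrower before maturation for cytosolic ribosomal protein genes (0.19 after, 0.15 before) and mitochondrial translation factors (0.17 after, 0.13 before). Replicate 2 before maturation was the highest of its group for 28 of the 37 genes (75.7%), against 33.1% of all probes and 31.2% of the brighter 50% of probes. For the large subunit this held for 20 of 24 genes and for the small subunit for 8 of 13. The shares in the same array were 55.0% for 40 respiratory chain and ATP synthase genes and 40.0% for 40 cytosolic ribosomal protein genes. They were 63.6% for 11 mitochondrial aminoacyl-tRNA synthetase and related genes, 44.4% for 9 mitochondrial translation factors and 41.7% for 12 assembly and rRNA modification factors. For 14 genes of mitochondrial transcription and RNA handling the share was 28.6%, and for 5 mitochondrial ribosome genes with other kinds of names 20%. Measured from each gene's mean of 6 arrays, the family's median deviation was 0.19 in replicate 2 before maturation, and it was -0.12 and -0.08 in replicates 1 and 3.

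MRPL16, a large subunit protein with a bacterial counterpart, shows this pattern plainly. Its log2 levels were 8.94, 8.76 and 9.30 after maturation, against 8.52, 9.37 and 8.55 before it. MRPS18B had levels of 8.61, 8.73 and 9.10 after maturation, against 8.23, 8.92 and 8.34 before it. In both, replicate 2 before maturation stood above its 2 companions. Markers of cumulus and granulosa cells were highest in this array for 2 of 16 genes among the pools before maturation, and oocyte markers for 2 of 11, and their part in this pattern was not tested.

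**Figure D3:**
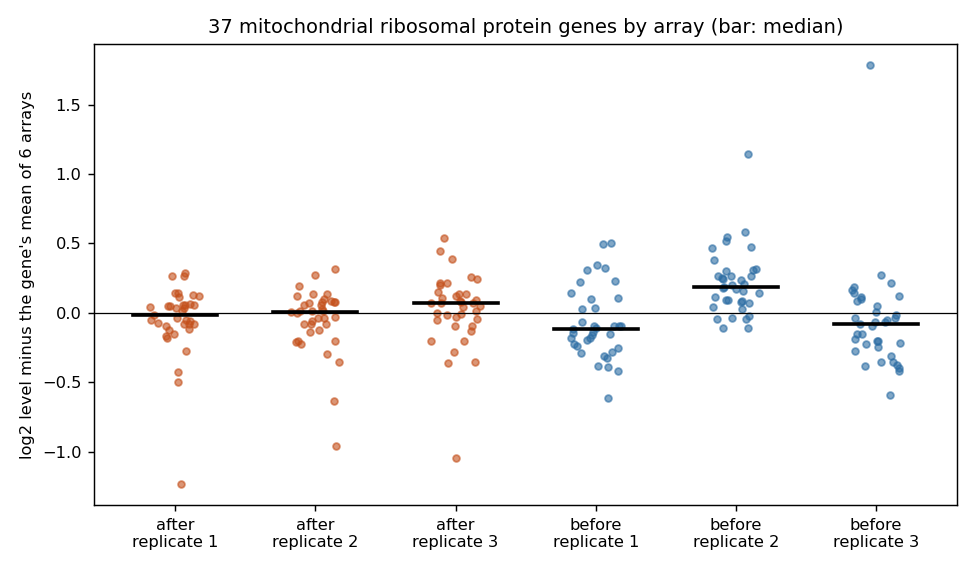
Log2 level of each of the 37 genes minus that gene's mean of 6 arrays, by array, with the median as a bar and the 3 matured pools on the left. The bar of replicate 2 before maturation stands at 0.19 and those of the other 5 arrays between -0.12 and 0.07; the points farthest from 0 belong to MRPS6.

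The family's median depended on that array. Paired by replicate number, the median log2 difference over the 37 genes was 0.13, -0.13 and 0.17 in pairs 1, 2 and 3. A sign shared by all 3 pairs was found for 8 genes on the higher side and 4 on the lower side, or 32.4% of the family, against 55.0% of all probes. Without replicate 2 before maturation the family's median was 0.13, and MRPL15 (0.53, limma adjusted p = 0.0368) and MRPL28 (0.49, adjusted p = 0.0391), another large subunit gene, were called higher. The 4 decreases were called without it as well.

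A further list held proteins of the mitochondrial ribosome, or bound to it, with other kinds of names. Of its 5 measured genes 0 were called, and their median log2 difference was -0.13. OXA1L, counted among the 5, is not itself a ribosomal protein. DAP3, a GTP-binding protein of the small subunit, averaged 6.15 ± 0.16 after maturation and 6.40 ± 0.23 before it (SD, n = 3, difference -0.25, limma adjusted p = 0.261). GADD45GIP1, a large subunit protein near the exit tunnel, averaged 5.91 ± 0.19 after maturation and 5.70 ± 0.10 before it (difference 0.21, limma adjusted p = 0.269). Under the level scaling both were called higher (0.50 for DAP3), and under the deviation scaling GADD45GIP1 was called higher (0.68) and DAP3 was not called (0.22).

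Factors that act with the mitochondrial ribosome were counted beside all probes, of which 11.3% were called. Of 9 measured mitochondrial translation factors 1 fell and 0 rose, with a median log2 difference of -0.11. The gene that fell was GUF1, an elongation factor relative that moves ribosomes backward, with levels of 6.44, 6.59 and 6.79 after maturation, against 7.08, 7.14 and 7.37 before it (difference -0.59, limma adjusted p = 0.0195). That call was lost without replicate 1 or 2 after maturation (limma adjusted p = 0.0814 and 0.0742), without moderation of the spread, with a second quantile normalization and under the level scaling (0.16) and the deviation scaling (-0.12). RMND1, which helps to anchor the ribosome near the messages, differed by -0.36 and was not called, except without replicate 3 after maturation (-0.49, adjusted p = 0.0315). TUFM, the factor that brings aminoacyl-tRNA to the ribosome, averaged 8.17 ± 0.23 after maturation and 7.96 ± 0.36 before it (SD, n = 3, difference 0.21, limma adjusted p = 0.489).

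Of 12 assembly and rRNA modification factors 0 were called, with a median of 0.06. RBFA, which acts in small subunit assembly, differed by 0.34 and MRM1, a methyltransferase of the large rRNA, by 0.38 (limma adjusted p = 0.156 and 0.166). Of 11 mitochondrial aminoacyl-tRNA synthetase and related genes 0 were called, with a median of -0.01. Among them FARS2, the phenylalanine enzyme, had levels of 4.22, 4.13 and 4.57 after maturation, against 4.69, 4.58 and 4.94 before it (difference -0.43, limma adjusted p = 0.0924). It was called lower with the replicate number as a block (adjusted p = 0.0230). PARS2, the proline enzyme, differed by 0.21 (limma adjusted p = 0.160).

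Of 14 genes of mitochondrial transcription and RNA handling 2 fell and 0 rose (14.3% called, against 11.3% of all probes). TFAM, which packages mitochondrial DNA and starts its transcription, had log2 levels of 3.82, 3.79 and 4.10 after maturation, against 4.46, 4.37 and 4.99 before it (difference -0.70, limma adjusted p = 0.0342). Its matured levels were below the lower quartile on all 3 of their arrays. HSD17B10, a dehydrogenase that is also a subunit of mitochondrial ribonuclease P, fell by 0.45 (limma adjusted p = 0.0219). Both calls were lost without replicate 1 or 2 after maturation (limma adjusted p = 0.0791 to 0.123), that of HSD17B10 also without replicate 2 before maturation (adjusted p = 0.0666), and both were lost without moderation of the spread. A second quantile normalization and trend and robust estimation each ended the call of HSD17B10, and TFAM was not tested where the dimmest probes were left out. Under the level scaling both values were positive (0.051 for TFAM and 0.31 for HSD17B10), under the deviation scaling they were -0.23 for TFAM and 0.024 for HSD17B10, and none of these was called. LRPPRC, a stabiliser of mitochondrial messages, differed by -0.05 (95% interval -0.29 to 0.18). Of 6 regulators of mitochondrial gene sets 0 were called, and the coactivator genes PPARGC1B and PPRC1 each differed by 0.30 (limma adjusted p = 0.140 and 0.227).

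Other gene sets were set beside the family: the ribosome of the cytosol, and the respiratory chain with ATP synthase, some of whose subunits the mitochondrial ribosome makes. Of 40 cytosolic ribosomal protein genes 21 fell (52.5%) and 0 rose, with a median log2 difference of -0.55. Of these 40 differences 6 were positive. RPL13A, RPL5, RPL7 and RPS15A were among the 6, and their probes lay under the lower quartile of every array. These dim probes also entered the level and deviation scalings. Of 40 nuclear genes of respiratory chain and ATP synthase subunits 7 fell (17.5%) and 1 rose (2.5%), with a median of -0.20. Over all probes 8.07% were called lower and 3.21% higher. The values for the mitochondrial ribosome were 4 of 37 lower (10.8%) and a median of 0.01. These sets were compared by counts and medians only, and the difference between them was not tested. Without replicate 1 or 2 after maturation the cytosolic count of lower genes was 12 and the respiratory one was 4, and with the replicate block they were 24 and 10.

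**Figure D4:**
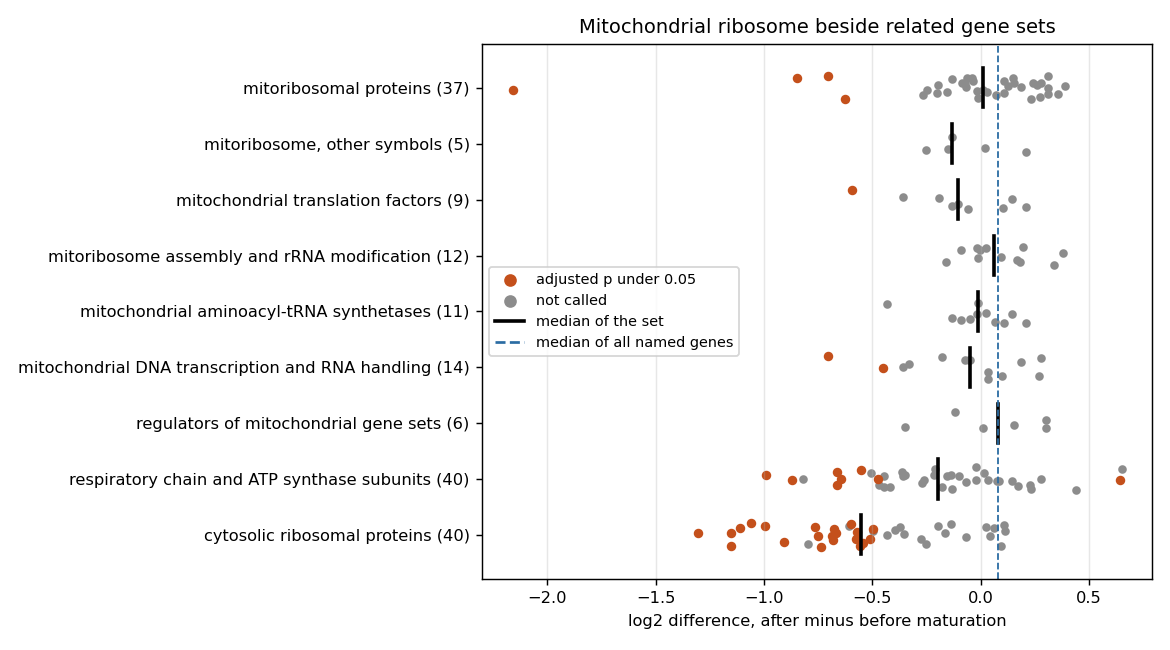
Log2 difference of each gene, after minus before maturation, for the 37 mitochondrial ribosomal protein genes and related sets, with the number of measured genes in brackets; orange points passed the test, black bars are set medians and the dashed line is the median of all named genes. The bar of the mitochondrial ribosomal proteins stands at 0.01, that of the respiratory chain genes at -0.20 and that of the cytosolic ribosomal proteins at -0.55 on the deposited scale; the level scaling moves every point to the right by 0.76 and the deviation scaling by 0.47.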

How the data were processed

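Per the submitters' processing notes, RMA was used for the deposited table, whose log2 scale was inferred from the method and from the values. Its options and any probe filter were not stated in what was read here. Of 12258 probes 10715 had 1 gene symbol, 475 several and 1068 none listed; the brightest probe stood for a gene. All 37 members matched the RefSeq table of Sscrofa11.1 by gene identifier, which was used for names and adjacency only.

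All probes were fitted with limma 3.58.1 in R 4.3.3 (lmFit, eBayes), after minus before maturation, adjusted over all probes, threshold 0.05. The fit was tested on simulated data. Tables and figures used Python 3.11.15, pandas 2.3.3 and matplotlib 3.10.9. The number of arrays limits precision, and an exact permutation test of 3 against 3 cannot give p under 0.1.

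Same-numbered arrays deviated together (correlations 0.283, 0.120 and 0.142, against -0.168 to 0.0191 for arrays with unlike numbers). Deviations from a group's mean cancel within the group, so these correlations are not independent and do not establish a pairing. The labels say only biological replicates. The unblocked fit was kept. Alternatives were the replicate block, 4 scalings (1 of them chosen after seeing the data), 2 filters on dim probes, 2 models of the spread, 1 probe per gene, other choices of probe and members, and leaving out each array.

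Members and lists were chosen with earlier results of these data known, and lists received no test. Genes were named by rule: called members, the 3 largest differences not called in each direction, the 3 brightest and 3 dimmest probes, fixed genes (7 of 13 were in the table), and the leading genes of each list. Other members and neighbouring genes in the text, such as MRPL16, MRPL28 and MRPL49, were named after their values were seen. No sequences were printed.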

Additional observations from a re-analysis of the deposited data

How the results depend on the processing

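On the deposited scale 4 genes of the family were called lower and 0 higher. The count of lower genes was 3 to 4 when single arrays were left out, 0 without moderation of the spread across probes, 1 under the level scaling and 2 under the deviation scaling. The count of higher genes was 0 to 2 when single arrays were left out and 1 with arrays at a common median. It was 33 under the level scaling and 27 under the deviation scaling. Most of all probes were called higher under both of these scalings too. The family's median was 0.77 under the level scaling, 0.49 under the deviation scaling and lay between -0.03 and 0.13 when single arrays were left out. The numbers of 4 lower and 0 higher were also found with the replicate block, a second quantile normalization, both filters on dim probes, 1 probe per gene, and trend and robust estimation; the block changed no call of the 37 genes. Every gene had 1 probe, so the choice of probe changed nothing, and the genes with other symbols added 0 calls. Filters on dim probes removed 1 gene. Other than under the level and deviation scalings, 10 uncalled genes changed sign under at least 1 alternative, with no call.

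Of all probes called higher there were 394, and of all probes called lower 989. The higher count was 915 with arrays at a common median, 10712 under the level scaling, 9593 under the deviation scaling, 596 with a second quantile normalization, 621 with the replicate block, 211 with the dimmer 50% of probes left out, 50 without moderation and 103 to 434 when single arrays were left out. The lower count was 306 under the level scaling, 523 under the deviation scaling, 147 without moderation and 531 to 1013 when single arrays were left out.

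The level and deviation scalings add 1 constant to every difference, so a sign that turns under them follows from the constant and is no result about that gene. The level scaling gave these positive values: MRPL3 (0.72), MRPL10 (0.49), MRPL14 (0.69), MRPL17 (0.62), MRPL24 (0.56), MRPL38 (0.51), MRPL46 (0.60), MRPL47 (0.55), MRPL50 (0.051), MRPL52 (0.13), MRPL53 (0.67), MRPS10 (0.69), MRPS24 (0.72), MRPS28 (0.74), MRPS34 (0.74), MRPS35 (0.68), DAP3 (0.50), LRPPRC (0.70), GUF1 (0.16), HSD17B10 (0.31), TFAM (0.051), ZP3 (0.058) and ZP4 (0.35). The deviation scaling turned fewer signs with a call in either fit: MRPL3 (0.44), MRPL14 (0.41), MRPL53 (0.39), MRPS10 (0.41), MRPS24 (0.43), MRPS28 (0.46), MRPS34 (0.46), MRPS35 (0.40), LRPPRC (0.42), HSD17B10 (0.024) and ZP4 (0.072).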

Other observations

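One further probe carried the symbol of a member together with another gene, TPD52;MRPS28, and stood outside the family because of its 2 symbols. TPD52 encodes a protein linked to vesicle traffic. The probe's log2 levels were 4.49, 4.43 and 4.52 after maturation, against 5.31, 5.53 and 5.71 before it (difference -1.04, limma adjusted p = 0.000965). The probe named for MRPS28 alone had levels of 6.64, 6.73 and 6.38 after maturation, against 6.39, 6.76 and 6.64 before it (difference -0.01, limma adjusted p = 0.953). The shared probe was picked out after its values were seen, and which transcript it reads was not tested.

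Many members lie close to other genes. The RefSeq spans of 12 of the 37 overlap another protein-coding gene, and 2 of these 12, MRPS6 and MRPL2, were called, while 11.3% of all probes were. Of 18 other named genes that overlap a member or lie within 1000 bases of one, 4 were called lower (KLC4, CUL7, FAU and MTBP) and 0 higher, or 22.2% lower against 8.07% of all probes. With the replicate block PPP1R10, which overlaps MRPS18B, was called lower too (-0.51, limma adjusted p = 0.0304). FAU, which encodes a cytosolic ribosomal protein fused to a ubiquitin-like one, overlaps MRPL49 and averaged 8.41 ± 0.17 after maturation and 9.38 ± 0.25 before it (SD, n = 3, difference -0.97, limma adjusted p = 0.00439). MRPL49 itself, specific to mitochondria, averaged 9.41 ± 0.13 after maturation and 9.13 ± 0.08 before it (difference 0.28, limma adjusted p = 0.118), so the values of this overlapping pair pointed in opposite directions. MRPL46 and MRPS11, both members, lie within 1000 bases of each other and differed by -0.16 and 0.07, and neither was called.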
